A study of Caenorhabditis elegans with 2 samples.

Results

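The regions described are the 1752 relaxed regions for HMBX-1 whose summits lie in the piRNA gene clusters of Caenorhabditis elegans chromosome IV. They are part of a list of 30000 regions called on both replicates together, which holds peaks with background. Only 16 of the 1752 are on the authors' thresholded list, so most members are not established binding sites. The 1752 were chosen by position alone: 734 have a summit between 4.5 and 7 Mb (the left cluster) and 1018 between 13.5 and 17.2 Mb (the right cluster), on assembly ce11. The remaining 3368 regions of chromosome IV served as the comparison. Inside the clusters, 895 regions had their summit within 250 bp of an annotated piRNA gene, called near regions below, and 857 did not, called other cluster regions.

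HMBX-1 is the nematode relative of the human homeobox protein HMBOX1. Chromatin immunoprecipitation with sequencing was done on whole early embryos of strain OP656, which carries the mutation unc-119(tm4063) on chromosome III and the transgene wgIs656, coding for HMBX-1 with a GFP-FLAG tag at its C terminus. Embryos of pooled sexes were collected 45 min after egg bleaching and sonicated, and the description states an antibody against GFP, while the antibody field of the labels reads hmbx-1. The 2 samples are biological replicates of this single group, so no condition was compared, and a tagged transgene line was the only strain; untagged embryos were not analysed here. Read depth is unknown, because the lists hold no read counts. The replicate lists held 25401 regions (replicate 1) and 22915 regions (replicate 2), of which 1465 and 1141 lay in the clusters.

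piRNAs are short RNAs bound by the Piwi protein PRG-1, which scan germline transcripts and start the silencing of foreign ones. In C. elegans most are made from a very large number of tiny independent genes on chromosome IV, many of them with an upstream promoter element called the Ruby motif, and RNA polymerase II transcribes them with the SNAPc factor SNPC-4 and its partner PRDE-1. The microRNA and tRNA genes scattered among them are separate classes of small RNA gene. The Ensembl annotation held 15363 piRNA genes, each 21 bp long, of which 14714 lie on IV: 2816 in the left cluster, 11388 in the right cluster and 510 elsewhere on IV. This is 1126 piRNA genes per Mb in the left cluster and 3078 per Mb in the right cluster, against 45.2 per Mb in the rest of IV.

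The piRNA genes beside some of the strongest near regions are shown because they made those regions near; of the 4 stretches, that of 21ur-9060 contains its summit and the others lie beside theirs. Each sequence below is on the gene's own strand and runs 5' to 3' from 60 bases upstream to the end of the mature piRNA (RefSeq sequence, WBcel235, the same assembly as ce11). Capitals mark the 21-base piRNA at the end and, where present, the CTGTTTCA core of the Ruby motif upstream. 21ur-5229 (chrIV:5967029-5967109, plus strand) adjoins the near region of highest signal and has no exact core. 21ur-5344 (chrIV:14576908-14576988, minus strand) and 21ur-718 (chrIV:5171322-5171402, minus strand) adjoin the next 2, and 21ur-9060 (chrIV:5507091-5507171, minus strand) lies 13 bp from a summit. The core begins 45, 47 and 46 bases upstream of these 3 piRNAs.
21ur-5229: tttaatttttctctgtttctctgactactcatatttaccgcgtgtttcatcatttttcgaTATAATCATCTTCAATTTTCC
21ur-5344: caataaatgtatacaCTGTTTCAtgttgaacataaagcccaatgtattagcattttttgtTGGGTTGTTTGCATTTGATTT
21ur-718: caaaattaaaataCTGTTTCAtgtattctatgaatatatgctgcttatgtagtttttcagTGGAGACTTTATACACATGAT
21ur-9060: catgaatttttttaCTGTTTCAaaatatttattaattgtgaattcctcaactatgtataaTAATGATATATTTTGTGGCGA

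The windows below hold the strongest near summit and the strongest summit of the clusters, with 100 bases to each side on the plus strand. In the first (chrIV:5967099-5967299) capitals mark the lysine tRNA gene B0350.t1, and the summit lies inside that gene. In the second (chrIV:14033970-14034170) capitals mark both mature arms of mir-52, and the summit lies in the downstream arm. The second window also holds the reverse complement of the Ruby core, TGAAACAG, to the right of the microRNA.
B0350.t1: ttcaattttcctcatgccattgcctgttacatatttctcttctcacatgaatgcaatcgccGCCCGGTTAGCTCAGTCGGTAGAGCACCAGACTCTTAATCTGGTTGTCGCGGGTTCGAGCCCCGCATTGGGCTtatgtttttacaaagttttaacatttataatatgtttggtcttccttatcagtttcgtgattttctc
mir-52: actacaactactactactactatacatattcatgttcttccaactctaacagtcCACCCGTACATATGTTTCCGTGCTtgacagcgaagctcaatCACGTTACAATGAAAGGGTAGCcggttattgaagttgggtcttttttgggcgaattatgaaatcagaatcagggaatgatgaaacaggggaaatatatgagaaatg

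The clusters did not hold more relaxed regions per Mb than the rest of the chromosome. There were 282.6 relaxed regions per Mb in the clusters and 298.2 per Mb in the rest of IV. Replicate 1 gave 236.3 and 259.8 per Mb, and replicate 2 gave 184.0 and 228.3 per Mb, so both replicates were lower in the clusters, by unequal amounts. The left cluster held 293.6 per Mb and the right cluster 275.1 per Mb. Protein-coding genes were also sparser in the clusters, at 152 per Mb against 207 per Mb in the rest of IV; the part of gene density in the difference was not tested. Outside the clusters, the pooled density was 338.7 per Mb left of the left cluster, 264.2 per Mb between the clusters and 432.2 per Mb in the short stretch right of the right cluster. The pooled density inside the clusters lay within the range of these stretches, whereas within either replicate it was below each of them: the 3 stretches held 284.9, 237.2 and 374.4 per Mb in replicate 1 and 256.9, 209.2 and 211.0 per Mb in replicate 2.

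The cluster stretches densest in piRNA genes did not hold more pooled regions than the sparsest. The 6 cluster stretches of 250 kb with the most piRNA genes (3532 to 4188 per Mb) held a median of 238 pooled regions per Mb, against 258 per Mb in the 6 with the fewest (8 to 1208 per Mb). The medians were 216 and 204 per Mb in replicate 1 and 132 and 176 per Mb in replicate 2. Of these 2 sets, the densest had the lower median in replicate 2 and not in replicate 1. The densest stretches all lay in the right cluster and the sparsest all in the left cluster. These clusters held 124 and 193 protein-coding genes per Mb, so piRNA gene density cannot be told apart from cluster in this contrast. None of the thresholded regions lay in the 6 densest stretches and 5 lay in the 6 sparsest, against 16 in all 25 cluster stretches. A single right cluster stretch, from 14000001 to 14250000, held 5 with 2744 piRNA genes per Mb.

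**Figure D1:**
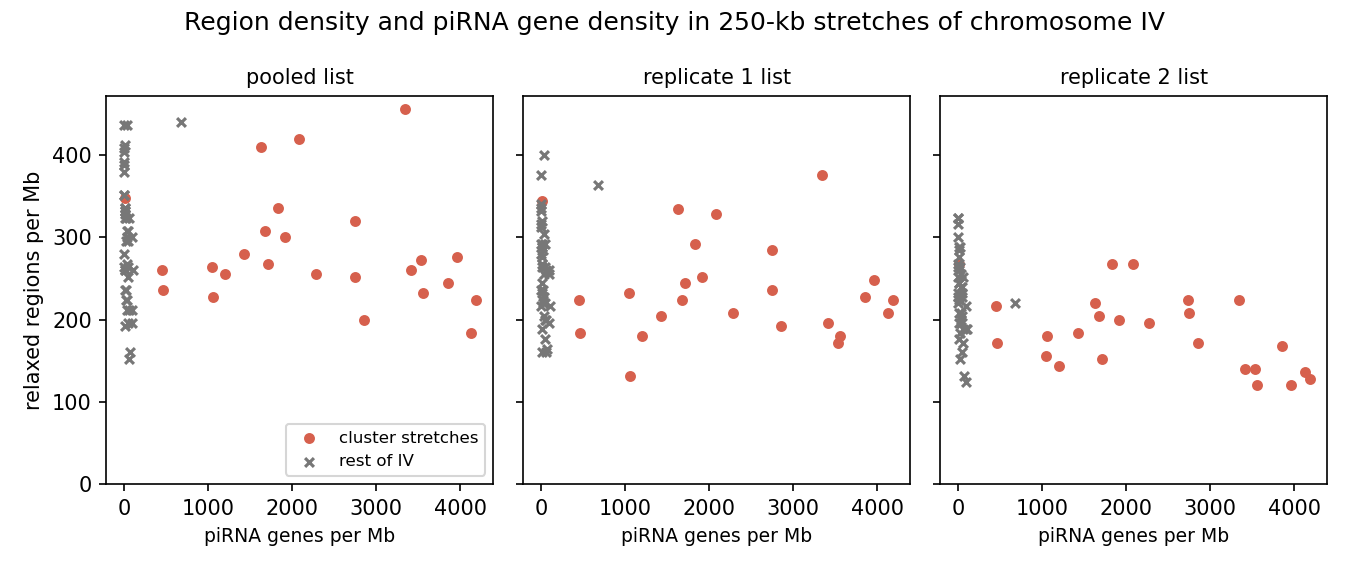
Relaxed regions per Mb (vertical axis) against piRNA genes per Mb (horizontal axis) in 250-kb stretches of chromosome IV, 1 point per stretch, for the pooled list and each replicate list; red points are the 25 cluster stretches and grey crosses the 45 stretches of the rest of IV. The cluster points span 184 to 456 regions per Mb in the pooled list, and in replicate 2 the 6 stretches from 3532 piRNA genes per Mb upward sit between 120 and 168.

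The authors' thresholded list marks regions that were reproducible between the replicates by the irreproducible discovery rate procedure. In the clusters, 25 of 1752 relaxed regions overlapped a thresholded region (1.43%, 95% exact Clopper-Pearson interval 0.926 to 2.10%), against 71 of 3368 in the rest of IV (2.11%, interval 1.65 to 2.65%) and 2.24% of all nuclear relaxed regions. Of these, 16 were themselves on the thresholded list (0.913%, interval 0.523 to 1.48%), against 45 in the rest of IV (1.34%, interval 0.976 to 1.78%) and 1.39% of all nuclear regions. The other 9 overlapping regions were neighbouring summits of the same peaks, with pooled signal values between 22.2 and 93.7. All such intervals cover the counting of regions only, and no test was made, since regions are not replicates. With regions at tRNA, snoRNA, snRNA and rRNA genes left out, the overlapping shares were 1.11% in the clusters and 1.301% in the rest of IV. The difference was then -0.186 percentage points, against -0.681 with these regions kept.

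The signal value is the authors' own peak-caller value, and it describes rank and height within a list. The 16 thresholded cluster regions were also the 16 of highest pooled signal in the clusters, from 542.7 down to 95.6, so list membership and signal are not separate evidence. The left cluster held 7 of them and the right cluster 9. Their median pooled signal was 114.5, against 128.6 for the 45 thresholded regions of the rest of IV. All 16 were found in both replicate lists, with values of 36.5 to 375.1 in replicate 1 and 22.2 to 178.6 in replicate 2. Values from different lists are not on a shared scale, so they are given side by side and not compared.

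**Figure D2:**
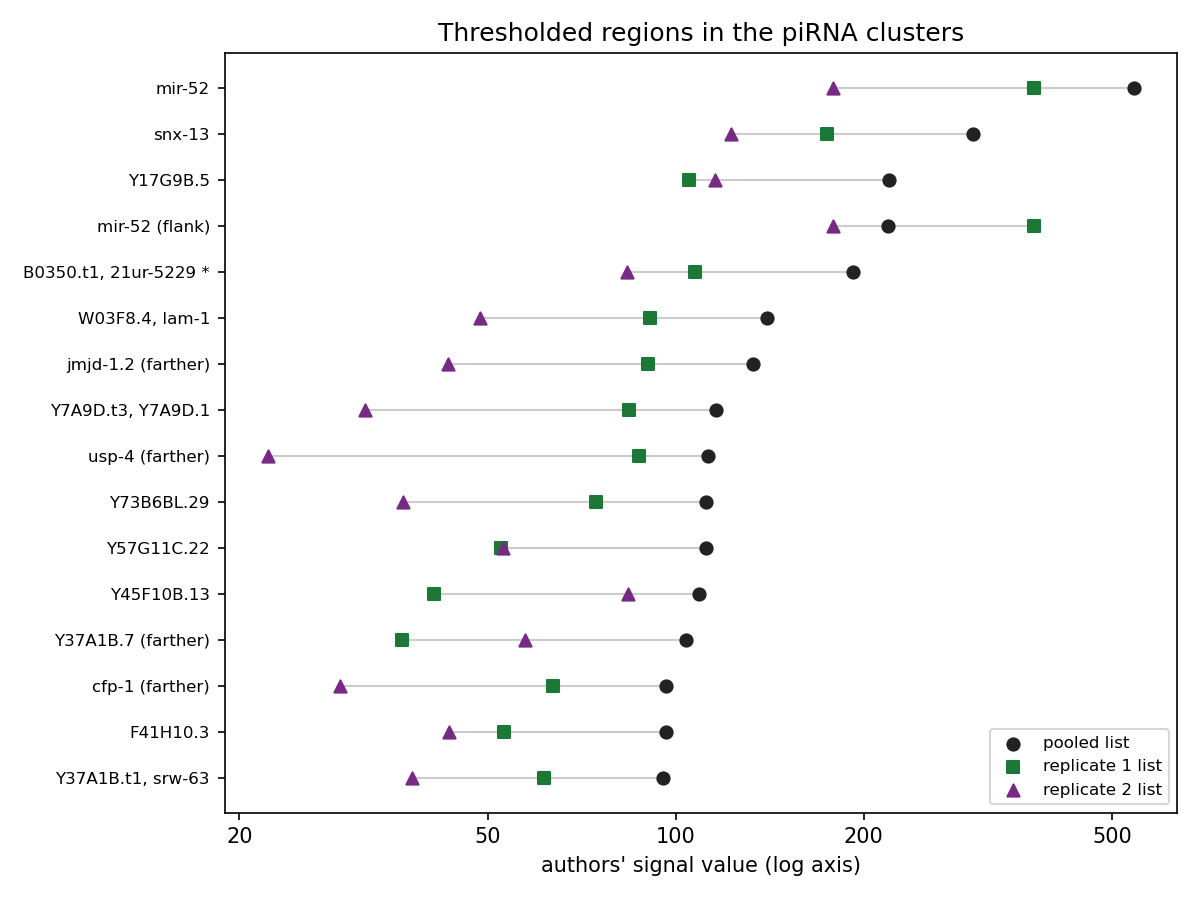
Authors' signal value (log axis) of the 16 thresholded cluster regions in the pooled list (circles), replicate 1 (squares) and replicate 2 (triangles), highest pooled value on top, the lists not being on a shared scale; rows are named by the protein-coding, microRNA, tRNA or piRNA genes within 250 bp of the summit, or by the nearest protein-coding start where none is that close (farther), and the asterisk marks the only region near a piRNA gene. The mir-52 region leads at 542.7, 375.1 and 178.6, and the mir-52 flank row shares its replicate values because the same replicate regions cover both summits.

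Small RNA genes of other classes carried several of the strongest cluster regions. mir-52, a microRNA of the mir-51 family that acts in embryonic development, held the highest value, at summit 14034070 with 542.7 in the pooled list, 375.1 in replicate 1 and 178.6 in replicate 2. This was the 4th highest of all nuclear regions. A further pooled summit 165 bp downstream of the mir-52 gene, at 14034272, had 218.5. The nearest piRNA gene to the main summit, 21ur-2841, was 1131 bp away. The 3 thresholded regions at tRNA genes were B0350.t1 (tRNA-Lys), Y7A9D.t3 (tRNA-Val) and Y37A1B.t1 (tRNA-Ala), the last named after its values were seen. Of all cluster regions, 2.68% lay at tRNA, snoRNA, snRNA or rRNA genes. At B0350.t1 the signal was 192.7 in the pooled list, 107.5 in replicate 1 and 83.5 in replicate 2, and at Y7A9D.t3 it was 116.1, 84.0 and 31.8 in the same order.

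Promoters of protein-coding genes were also common among them. Of the 16 thresholded regions, 7 had a protein-coding start within 500 bp, and 1 of these is the Y7A9D.t3 region given above. Such a start lay within 500 bp of 17.2% of all cluster regions and of 29.5% in their top signal decile. snx-13, a sorting nexin of endosomal traffic, had its start 143 bp from summit 17087581, with 299.3 in the pooled list, 174.9 in replicate 1 and 122.8 in replicate 2. The neighbouring summit 17087782 of the same peak lay 267 bp from the start of snr-1, so the peak is not credited to snx-13 alone. Y17G9B.5 had its start 175 bp from summit 4750065, with 219.6, 105.0 and 115.6. Summit 5183940 lay 183 bp from the start of W03F8.4 and 194 bp past the end of lam-1, which codes for a laminin beta chain, with 139.8 in the pooled list. jmjd-1.2, a histone demethylase gene, had a start 352 bp from summit 4660639, with 133.0, 90.4 and 43.1. The value at Y73B6BL.29 was 111.9, and its summit 6321966 fell 37 bp from the start, in an untranslated exon.

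The other named thresholded regions lay away from such starts. Summit 6756724, 587 bp from the start of usp-4, a ubiquitin-specific protease gene, had 112.9 in the pooled list, 87.3 in replicate 1 and 22.2 in replicate 2. Summit 14838378, in an intron of Y57G11C.22, had 111.9 in the pooled list, 52.5 in replicate 1 and 52.8 in replicate 2. Summit 13549532, 73 bp past the end of Y45F10B.13, had 109.2 in the pooled list, 41.1 in replicate 1 and 83.9 in replicate 2. Over all 16 regions, 13 summits lay between genes, 2 in introns, 1 in an untranslated exon and none in a coding exon. The Ruby core was in the 201-bp window of 2 of them, both at mir-52, and 1 lay near a piRNA gene.

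Over all members, signal in the clusters was slightly lower than in the rest of IV. The median pooled signal was 29.4 in the clusters and 31.1 in the rest of IV, a log2 ratio of medians of -0.08. It was 22.4 and 22.9 in replicate 1 (log2 ratio -0.04) and 16.7 and 17.0 in replicate 2 (log2 ratio -0.03). The direction was the same in each list, and the ratio was over 1.5 times nearer to 0 within either replicate than in the pooled list.

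Cluster regions lay near piRNA genes about as often as the sequence itself does. Positions within 250 bp of a piRNA gene make up 50.9% of the cluster sequence, and 895 of 1752 pooled regions were near (51.1%, interval 48.7 to 53.5%). The replicates fell on opposite sides of the sequence share: 784 of 1465 regions were near in replicate 1 (53.5%, interval 50.9 to 56.1%) and 494 of 1141 in replicate 2 (43.3%, interval 40.4 to 46.2%). In the right cluster the pooled share was 60.9%, against 62.0% of its sequence, with 65.0% in replicate 1 and 51.4% in replicate 2. In the left cluster it was 37.5%, against 34.5% of its sequence, with 36.3% in replicate 1 and 33.4% in replicate 2. No excess near piRNA genes thus held in both replicates and both clusters.

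The strongest cluster regions were seldom near piRNA genes. In the top signal decile of the pooled list, 43 of 176 were near (24.4%, interval 18.3 to 31.5%), whereas the 9 lower deciles ranged from 45.7 to 64.6%. The top decile held 28.6% near regions in replicate 1 (interval 21.4 to 36.6%) and 20.9% in replicate 2 (interval 13.9 to 29.4%). All 3 lie below the 50.9% of sequence. The same top decile of the pooled list held 29.5% promoter-proximal regions and had a median GC of 36.3%. The lowest decile had 13.1% and 30.3%. The part of promoters and GC in the pattern was not tested.

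**Figure D3:**
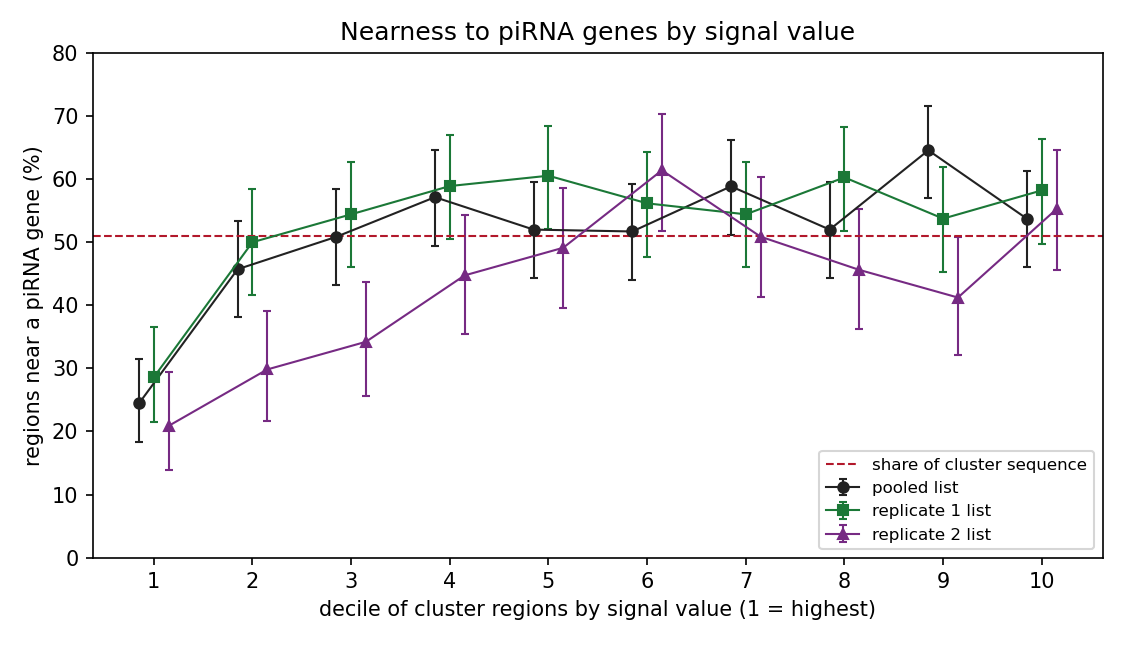
Percent of cluster regions within 250 bp of a piRNA gene (vertical axis) by decile of signal value, from the highest on the left, in the pooled list (circles), replicate 1 (squares) and replicate 2 (triangles); bars are 95% exact intervals and the dashed line is the 50.9% of cluster sequence. The top decile lies at 24.4, 28.6 and 20.9% in the 3 lists, and replicate 2 stays under the line through the first 5 deciles.

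Near regions were rarely thresholded. Only 2 of 895 near regions overlapped a thresholded region (0.223%, interval 0.0271 to 0.805%), against 23 of 857 other cluster regions (2.68%, interval 1.71 to 4.0%). In replicate 1 the counts were 2 of 784 and 21 of 681, and in replicate 2 they were 1 of 494 and 21 of 647. Counting regions that are themselves on the thresholded list, there was 1 near region and there were 15 other cluster regions. Both overlapping near regions, chosen for mention after their values were seen, also lay at tRNA genes: summit 5967199 in B0350.t1, and summit 16382564, with a signal of 57.0, beside Y7A9D.t3 and 99 bp from 21ur-3939. Away from tRNA, snoRNA, snRNA and rRNA genes, 0 of 881 near regions overlapped a thresholded region, which allows a share of up to 0.341%, against 19 of 824 other cluster regions (2.31%).

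Regions within 250 bp of a piRNA gene also had lower signal as a class. Those with the summit inside a piRNA gene (0 bp), 3.54% of cluster regions, had a median of 29.8. This was above the 29.4 of all remaining cluster regions, which include most near regions (log2 ratio 0.02). It was below the 30.6 of other cluster regions. The median pooled signal was 28.4 for near regions and 30.6 for other cluster regions, a log2 ratio of -0.11, with -0.06 in replicate 1 and -0.15 in replicate 2. The difference widened at the top: the 90th percentile was 41.7 for near regions and 54.1 for other cluster regions, with 31.7 and 38.2 in replicate 1 and 22.7 and 28.7 in replicate 2. Other cluster regions were close to the rest of IV, whose pooled median was 31.1 and 90th percentile 49.6. Among near regions, signal tended to be lower with more piRNA genes in reach, without a steady fall. The pooled median was 28.7 with 1 gene, 28.2 with 2, 28.5 with 3, 26.7 with 4 and 27.7 with 5 or more. In the same order it was 22.1, 21.8, 22.3, 21.2 and 21.4 in replicate 1. In replicate 2 it was 16.6, 15.8, 15.8, 15.6 and 16.1. The only near regions that overlapped a thresholded region had 1 piRNA gene in reach.

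**Figure D4:**
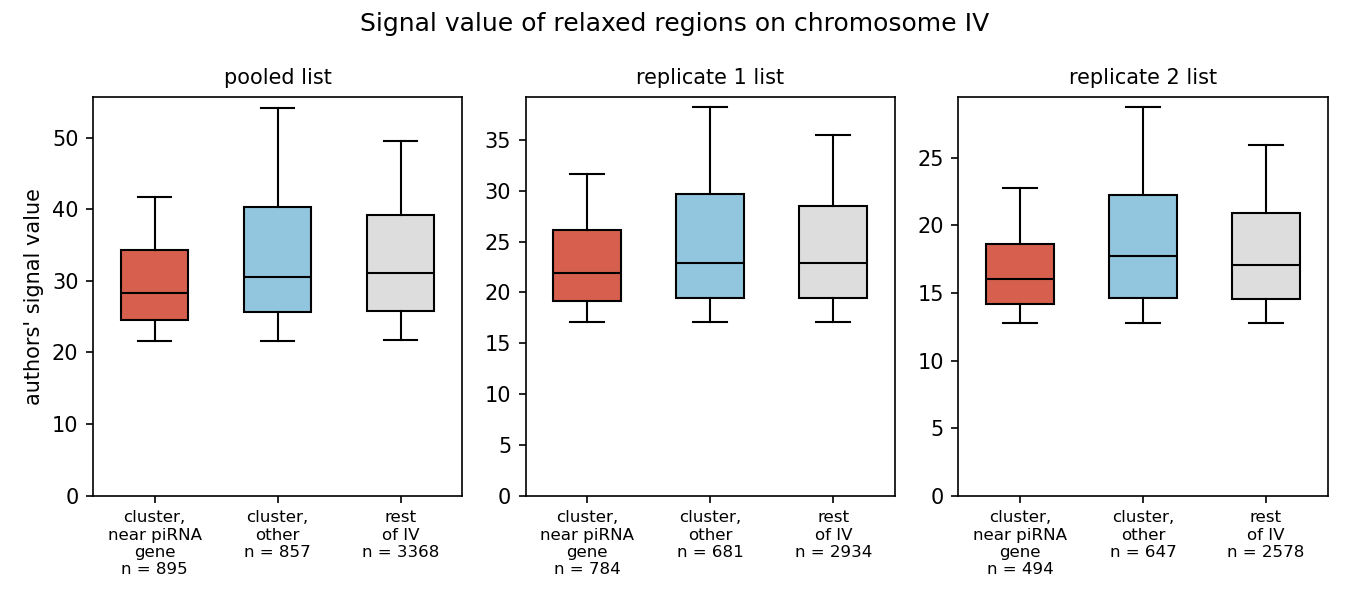
Authors' signal value of relaxed regions near a piRNA gene in the clusters, other cluster regions and the rest of chromosome IV, for the pooled list and each replicate list; boxes span the quartiles with the median as a line, and whiskers run from the lowest value to the 90th percentile. Near regions have the lowest median in each list, 28.4, 21.9 and 15.995, and the lowest 90th percentile.

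Sequence makeup and promoters differed between the classes along with signal. The median GC share of the 201-bp window was 28.4% in near regions and 34.8% in other cluster regions, and cluster sequence differed in the same way, at 28.9 and 35.8%. Near regions were promoter-proximal in 10.5% of cases, against 24.2% of other cluster regions. With GC at or above the member median of 31.8%, the pooled median signal was 29.4 for near regions and 30.9 for other cluster regions, and below it the medians were 27.8 and 30.0. Among promoter-proximal regions the medians were 29.3 and 32.7, and away from promoters they were 28.2 and 30.1. Near regions had the lower median in each of these splits, and the same order held in both replicate lists. Within the GC splits near regions still had the lower median GC, at 35.8 against 37.8% above the cut and 26.4 against 27.9% below it. The part of GC and promoters in the signal difference was not tested. Away from both promoters and tRNA, snoRNA, snRNA and rRNA genes, 0 of 789 near regions overlapped a thresholded region, which allows up to 0.380%. The count was 7 of 622 other cluster regions (1.13%). These 7 include summits 14034070 and 14034272 at mir-52, since microRNA genes were not left out.

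The near regions of highest signal were modest apart from the first. After the B0350.t1 region beside 21ur-5229, printed above, the next was summit 14576811, 97 bp from 21ur-5344 and 118 bp from the tRNA-Gly gene Y57G11B.t1, with 76.5 in the pooled list, 44.0 in replicate 1 and 24.98 in replicate 2. Summit 5171285, 37 bp from 21ur-718 and 2047 bp from the start of lam-1, had 73.1, 59.3 and 19.1. Summit 15561421, in an intron of Y105C5A.1 and 236 bp from 21ur-7423, had 72.9, 46.4 and 24.7. Each of these 3 was between 31st and 35th in the clusters by pooled signal.

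The remaining 4 of the 8 strongest had pooled signals of 66.2 to 70.9. Summit 5507124, 13 bp upstream of the 5' end of 21ur-9060, lay in an intron of the netrin receptor gene unc-5 and had 70.9, 38.8 and 33.8. It is the only 1 of the 8 with the Ruby core inside its window, although 4 of the 8 nearest piRNA genes (21ur-5344, 21ur-718, 21ur-7423 and 21ur-9060) carry the core upstream. Summit 14967820, 89 bp from 21ur-5493 with 5 piRNA genes in reach, had 70.3 in the pooled list and 47.3 in replicate 1, and no region of replicate 2 overlapped it. Summit 14414679, 148 bp from 21ur-13889, had 69.6, and summit 5526951, 249 bp from 21ur-15285 in another intron of unc-5, had 66.2. For scale, the 5 strongest other cluster regions outside thresholded peaks had 81.3 to 91.4, led by summit 16398451 in the tRNA-Ala gene Y65A5A.t1.

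No excess of summits on the promoter side of piRNA genes was shared by the replicates. In the 100 bp upstream of the nearest piRNA 5' end lay 13.2% of pooled cluster summits (interval 11.7 to 14.9%), against 15.01% of cluster sequence. The share was 16.04% in replicate 1 (interval 14.2 to 18.02%) and 11.6% in replicate 2 (interval 9.77 to 13.6%). In the 100 bp downstream it was 14.8% in the pooled list, 15.7% in replicate 1 and 12.4% in replicate 2, against 14.7% of sequence. Replicate 2 was below the sequence share on both sides of the 5' end, and replicate 1 slightly above it.

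**Figure D5:**
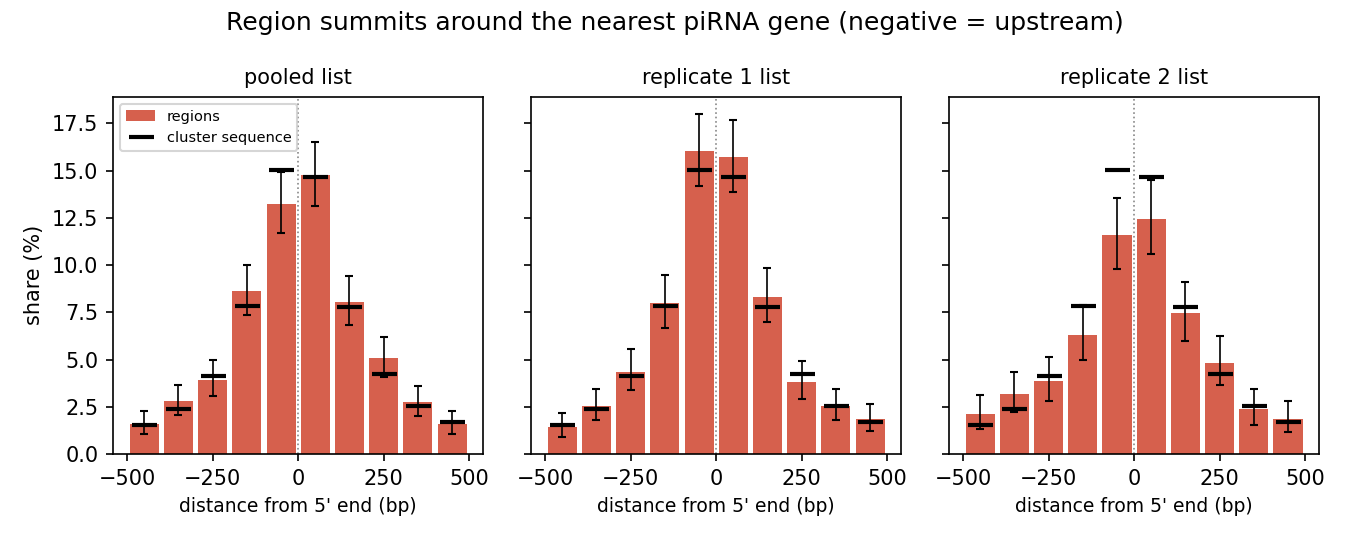
Percent of cluster region summits (red bars, with 95% exact intervals) and of cluster sequence (black dashes) in 100-bp steps of distance to the 5' end of the nearest piRNA gene, negative values upstream, for the pooled list and each replicate list. In the step just upstream the bars stand at 13.2, 16.04 and 11.6%, against 15.01% of sequence.

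The Ruby core was as frequent under near regions as in the sequence they came from. The 8 bases CTGTTTCA, searched on both strands within 100 bp of the summit, were in the window of 225 of 895 near regions (25.1%, interval 22.3 to 28.1%) and 19 of 857 other cluster regions (2.22%, interval 1.34 to 3.44%). Windows around all positions of the near sequence held it in 25.7% of cases, and those of the other cluster sequence in 3.08%. In replicate 1 the core was in 26.3% of near regions and 2.50% of other cluster regions, and in replicate 2 in 24.7 and 2.16%. Near regions with the core had a median pooled signal of 28.2 (n = 225) and those without it 28.4 (n = 670), with 22.4 and 21.9 in replicate 1 and 15.9 and 16.03 in replicate 2. None of the 225 overlapped a thresholded region, against 2 of the 670 without the core and 0.223% of all near regions. These counts are too few to set the 2 groups apart. A match is a description of the letters in the window and does not show a bound site.

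Read from the piRNA genes instead of the regions, the picture was the same. Of the 14204 piRNA genes in the clusters, 1917 (13.5%) had a pooled summit within 250 bp, with 12.3% in replicate 1 and 7.32% in replicate 2. In the rest of IV, 76 of 510 piRNA genes (14.9%, interval 11.9 to 18.3%) had one. The core lay within the 60 bases upstream in 4944 of the cluster genes (34.8%), with a median start 46 bases upstream. A pooled summit was within 250 bp of 13.4% of genes with the core and 13.6% of genes without it. The shares were 11.95 and 12.5% in replicate 1 and 8.05 and 6.93% in replicate 2. A region overlapping a thresholded one lay in reach of 2 cluster piRNA genes, 21ur-5229 and 21ur-3939. Both are among the 9260 genes without the core (0.0216%). The count was 0 of the 4944 genes with the core, which allows up to 0.0607%.

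The share of regions found in both replicates was lower in the clusters. A region of each replicate list overlapped 580 of 1752 cluster regions (33.1%, interval 30.9 to 35.4%), against 1368 of 3368 regions in the rest of IV (40.6%, interval 39.0 to 42.3%). It was low in the near regions: 23.6% of near regions were found in both lists (interval 20.8 to 26.5%), against 43.1% of other cluster regions (interval 39.7 to 46.4%). Replicate 1 overlapped 67.3% of near and 69.8% of other cluster regions, whereas replicate 2 overlapped 44.1% of near and 62.3% of other cluster regions. Of the 580 regions found in both lists, 211 were near (36.4%, interval 32.5 to 40.4%), against 50.9% of the sequence. Of the 620 found in replicate 1 alone, 391 were near (63.1%, interval 59.1 to 66.9%). The share was 184 of 349 for those found in replicate 2 alone (52.7%, interval 47.3 to 58.1%) and 109 of 203 for those found in neither (53.7%, interval 46.6 to 60.7%). Near regions also had the lower GC and the lower median signal. At or above the median signal, 55.2% of cluster regions and 60.2% of those in the rest of IV were found in both lists. The parts of GC and signal in the gap between the replicates were not tested.

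Most members lay between genes or in introns. Of the 1752 summits, 48.2% lay between genes, 34.5% in introns, 12.1% in coding exons and 5.14% in untranslated exons, where piRNA and other noncoding genes were not counted as genes. The cluster sequence is 50.6, 29.3, 17.0 and 3.11% of each, so coding exons were under their share of sequence and introns above it. The rest of IV had the same tendency, with 13.9% of regions in coding exons, against 25.7% of its sequence. Promoter-proximal regions made up 17.2% of cluster regions (interval 15.4 to 19.0%) and 26.4% in the rest of IV (interval 24.9 to 27.9%), against 14.4 and 19.4% of sequence. Regions at tRNA, snoRNA, snRNA or rRNA genes made up 2.68% of cluster regions (47 regions) and 1.84% in the rest of IV, against 0.715 and 0.495% of sequence. Such regions overlapped a thresholded region in 2 of 14 cases among near regions and 4 of 33 among other cluster regions. The share over all cluster regions was 1.43%. All of these summits belong to the 3 tRNA peaks named above, and the B0350.t1 and Y7A9D.t3 peaks have a summit in each class.

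Genes that make and use piRNAs lie on many chromosomes, and a list of 28 was examined for regions at their own promoters; 26 were matched in the annotation. Of these, 9 (34.6%) had a pooled relaxed summit within 500 bp of the start, against 32.2% of all nuclear protein-coding genes. In replicate 1 the share was 9 of 26 (34.6%), against 28.2% of all genes, and in replicate 2 it was 11 of 26 (42.3%), against 26.2%. None had a thresholded summit there, which allows a share of up to 11.5%, against 1.04% of all genes. The 4 of highest signal were tofu-6, tost-1, pid-1 and pid-2; the others below are named for their role, after their values were seen. Among transcription factors of piRNA genes, snpc-4 had a weak region of 21.9, while unc-130, a forkhead factor gene, had 29.9. For prde-1 there was none in the pooled list and 1 of 14.8 in replicate 2. Among the genes of the PETISCO processing complex, tofu-6 had 41.6, tost-1 had 36.4 and pid-1 had 36.0, each in 1 replicate list only. Neither pid-3 nor erh-2 had a pooled region, but pid-3 had 21.9 in replicate 1 and erh-2 had 13.6 in replicate 2. The Piwi gene prg-1 and the trimming enzyme gene parn-1 had no region in any list. The methyltransferase gene henn-1 had no pooled region but had 18.1 in replicate 1. pid-2, at 32.7, and mut-16, the scaffold gene of mutator foci, at 21.7, were the 2 with a region in both replicate lists.

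The regions on either side of each cluster limit are given as values. Just inside the left limit of the left cluster, summit 4500051 had a signal of 21.8, and just outside it summit 4499851 had 52.7, both in an intron of gbb-2. At the right limit of the left cluster, summit 6991996 inside had 30.4 and summit 7012980 outside, in an intron of trxr-1, had 24.3. At the left limit of the right cluster, summit 13500481 inside had 41.6 and summit 13499576 outside had 24.6, both in an intron of tbc-9. At the right limit of the right cluster, summit 17199789 inside had 23.2 and summit 17200021 outside had 25.7, both in a coding exon of cnnm-1.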

How the data were processed

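ChIP-seq regions of 2 biological replicates were read from the deposited ce11 lists: relaxed lists for each replicate and for both pooled, and a thresholded list. Per the file headers, the lists are narrowPeak files and the relaxed ones hold peaks with background as input for the IDR procedure. The signal value per region was deposited by the authors and was used as it stands. The peak caller, the scale of the signal, the control, the IDR threshold, the aligner and the handling of reads that map to several places were not given in the sources used here. Lists on ce10 were not used.

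A region's position is its summit (start plus offset), given 1-based. Genes came from Ensembl release 115 and sequence from RefSeq (both WBcel235, of the same length for chromosome IV, 17493829 bp). A region was near a piRNA gene within 250 bp, promoter-proximal within 500 bp of a protein-coding start, and at a small RNA gene with a gene of the tRNA, rRNA, snRNA or snoRNA class within 250 bp. It was counted as thresholded when it overlapped a thresholded region by 1 bp or more; counting only regions that are themselves on that list was added after seeing the data. GC and the core were read within 100 bp of the summit. Sequence shares count every base of the clusters by the same rules. Shares carry exact 95% Clopper-Pearson intervals; where nothing was counted, the limit is that of 3 counts. No test was run, since the design has 1 group and regions are not replicates. Distance functions were tested on simulated data. Python 3.11.15, pandas 2.3.3, numpy 2.4.6, scipy 1.17.1 and matplotlib 3.10.9 were used.

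The members and lists were chosen with earlier results of these data known. Named were the 12 thresholded regions of highest signal, the 8 strongest near regions, the 5 strongest remaining regions, those at the cluster limits and, of the piRNA pathway list, the 4 with the highest signal. Alternatives were other cluster limits, distances, windows, overlap rules and signal minimums, merged regions, regions at small RNA genes left out, and each replicate list alone.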

Additional observations from a re-analysis of the deposited data

How the results depend on the processing

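Across 10 results and 20 settings, 96 alternative values were computed: 56 moved by less than the spread between the replicates, 34 moved further with the same direction and 6 changed direction. Differences are given as clusters minus rest of IV or near minus other cluster regions, with shares in percentage points. The near share minus the sequence share was 0.175, and it was -0.448 with limits 100 kb outward, -5.86 for regions at or above the median signal, -0.213 at a distance of 0 bp and -1.27 at 100 bp; the cause was not tested. The log2 signal ratio was 0.0207 at 0 bp, where the reference also holds regions within 250 bp of a piRNA gene but not inside one.

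The near difference in the thresholded share, -2.46, was -2.68 with limits moved inward, -2.63 outward, -1.97 with overlapping regions merged, -4.35 at or above the median signal, -2.31 without small RNA genes, -1.48, -1.52 and -2.13 at 0, 100 and 500 bp, -0.938 for the upper 50% of the thresholded list and -1.64 for regions themselves listed (16 cluster regions, against 25 by overlap). The cluster difference in that share, -0.681, was -0.465 with limits outward, -0.466 merged, -0.186 without small RNA genes and -0.423 for regions themselves listed. The log2 signal ratio of the clusters, -0.08, was -0.092 merged and -0.0331 at or above the median signal, where the share found in both replicates differed by -4.96. The core difference, 22.9, was 35.7, 28.9 and 20.2 at 0, 100 and 500 bp and 11.6 and 42.5 with windows of 50 and 200 bp to each side. The GC difference, -6.47, was -4.98 at 0 bp, -5.47 at 500 bp and -5.74 with 200 bp to each side. The promoter-proximal difference, -9.19, was -5.70 at 250 bp, -11.9 at 1000 bp and -10.1 merged.

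With a single replicate list the values ranged from -44.2 to -23.5 regions per Mb for density, -0.78 to -0.55 for the thresholded share of the clusters, -0.0358 to -0.0302 for their log2 signal ratio, -7.61 to 2.61 for the near share, -3.04 to -2.83 for the thresholded share of near regions, -0.15 to -0.06 for their log2 signal ratio, 22.5 to 23.8 for the core, -8.53 to -7.38 for promoters and -6.97 to -5.97 for GC. The share found in both replicates has no such value. No paired analysis was possible because there is 1 group. Depth is unknown, the pooled list ends at 30000 regions, and 25 thresholded members limit any split of them.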
